A study of Homo sapiens with 2 samples.

Results

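The 33 genes described here belong to the p53 pathway. They were chosen by name, from a list of genes that p53 is known to regulate or that regulate p53, and all 33 were found among the 26447 gene symbols of both deposited tables. RNA sequencing compared 2 libraries of C4-2B ENZR, an established human prostate cancer cell line that tolerates the androgen receptor antagonist enzalutamide and was grown in 20 µM of it. The library called shControl came from cells with a non-targeting hairpin and the library called shNRP2 from cells with a hairpin against the coding region of NRP2, a co-receptor for semaphorins and VEGF ligands. Both hairpins were delivered by lentivirus and both lines were kept under antibiotic selection, so the groups share infection, selection and drug. Each group holds 1 library and the knockdown rests on 1 hairpin; how many cultures or clones entered a library was not stated. There is therefore no spread between replicates and no p-value for the knockdown, and every difference describes these 2 libraries.

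p53 is a transcription factor that responds to DNA damage and other stress. In unstressed cells MDM2 and MDM4 hold it in check, MDM2 by marking it for degradation and MDM4 by masking its activation domain. When it is stabilised it raises transcription of genes for cell cycle arrest, DNA repair, cell death and metabolism, and of MDM2 itself, which closes a feedback loop. C4-2B descends from LNCaP, a prostate cancer line known to keep p53 without a mutation that inactivates it.

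Reads on genes numbered 21052178 in shControl and 22992304 in shNRP2. NRP2 was at 0.974 CPM (20 reads) in shControl and 0.330 CPM (7 reads) in shNRP2, 2.95-fold lower with a counting interval from 1.20 to 8.26. Its log2 change on the scale used below was -0.57 (-0.93 to -0.10), just short of a call. Under 1 CPM in both libraries, NRP2 was also outside the compared genes, so its decrease rests on few reads. All 6 markers of prostate epithelium were present and summed to 2163 and 2237 CPM. Within that sum FOXA1 was at 453 and 302 CPM (log2 change -0.58, just short of a call) and KRT8 at 457 and 616 CPM (0.43). Markers of other cell types were lower: 6 fibroblast markers summed to 46.7 and 36.8 CPM, nearly all of it COL1A1, 6 endothelial markers to 23.8 and 32.8 CPM, nearly all of it EGFL7 and VWF, and 6 immune markers to 7.40 and 10.9 CPM, nearly all of it CD68. Of the other markers on these lists, DCN and TIE1 had 0 reads in both libraries and PTPRC had 5 and 1. PECAM1 had 0 and 6 reads, LYZ 6 and 17, COL1A2 30 and 26, and PDGFRB 50 and 40. The part of these other markers in the results was not tested. In bulk RNA, fewer cells of a type and less RNA per cell cannot be told apart.

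Levels are the deposited TMM-scaled CPM (reads of a gene relative to the library's total, with an added scaling factor), given for shControl first and shNRP2 second. The change of a gene is log2((shNRP2 CPM + 1)/(shControl CPM + 1)), a scale that understates the change of low genes. A ratio is shNRP2 over shControl without a pseudocount, followed in parentheses by its 95% interval, exact and binomial (Clopper-Pearson), given both read counts. Such an interval covers counting error alone: amplified reads carry no molecular identifiers and no culture was repeated. The comparison took in 13316 genes whose mean over both libraries reached 1 CPM, and the 33 members all passed. A call, higher or lower, needed a log2 change of 0.58 in size, which is 1.5-fold.

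Because p53 binds DNA directly, promoter sequences were searched for its decamer, a 10-base motif of 3 purines, C, 2 bases that are A or T, G and 3 pyrimidines. The motif is its own reverse complement in these classes, so 1 search covers both strands. Windows of 300 bases, 250 before to 50 after the RefSeq transcript start (GRCh38.p14), were found for 27 of the 33 genes, in 37 windows. A decamer without mismatch occurred in 8 of the 27 genes (29.6%), against 8.06% of 27305 genes with a window, and in 21.6% of the members' windows against 6.63% of 35116 windows. Pairs of decamers up to 13 bases apart, with the central 4 bases of each intact and at most 2 mismatches elsewhere, occurred in 3 of the 27 genes (11.1%) against 1.81% of all genes. A match describes letters and not a bound site. A window without a match says only that these letters are not in it. The list was drawn up from known p53 targets, so the motif's share among them says nothing about the knockdown.

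The 8 genes are shown because they carry the motif next to their start; each line gives 30 bases, 5′ to 3′ on the gene's strand, with the decamers in capitals.

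FAS: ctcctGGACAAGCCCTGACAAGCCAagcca

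DDB2: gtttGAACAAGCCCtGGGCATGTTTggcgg

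AEN: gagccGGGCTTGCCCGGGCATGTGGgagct

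PLK2: tggcgggacaAGACTTGCTTcccggccacg

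SESN1: attgtcgtctGGACAAGTCTccacaagtca

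EI24: cgtgcggcccGGGCATGCCCagtgcgggcg

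RPS27L: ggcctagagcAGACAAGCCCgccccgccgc

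FDXR: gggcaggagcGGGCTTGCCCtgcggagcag

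In GRCh38.p14 these stretches lie at chr10:88991304-88991333 (FAS, plus strand), chr11:47214975-47215004 (DDB2, plus), chr15:88621301-88621330 (AEN, plus), chr5:58460199-58460228 (PLK2, minus), chr6:109009018-109009047 (SESN1, minus), chr11:125569457-125569486 (EI24, plus), chr15:63157517-63157546 (RPS27L, minus) and chr17:74872986-74873015 (FDXR, minus). DDB2 holds a pair of decamers with 0 mismatches and 1 base between them, 6 to 26 bases into its transcript. The pairs of FAS and AEN have 2 mismatches each and lie before the start, from -122 to -103 and from -34 to -15. The single decamers begin at -132 in PLK2, -59 in RPS27L, -49 in SESN1, -11 in FDXR and -10 in EI24. Genes with the motif did not share a direction in the libraries. Their log2 changes ran from -0.69 (PLK2) to 0.71 (FAS) with a median of 0.21, and the 19 genes with a window and no decamer ran from -0.79 to 0.77 with a median of 0.12. The 6 genes without a window ran from 0.01 to 0.52 with a median of 0.28. Changes above 0 were seen in 6 of the 8 genes with the motif and 12 of the 19 without it. All 6 genes without a window were above 0, and so were 54.1% of all compared genes.

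As a group the 33 genes lay slightly above the rest of the transcriptome. ZMAT3, FAS, SPATA18 and BTG2 were called higher in shNRP2, and PLK2 and ACER2 were called lower. That is 4 of 33 higher (12.1%), where 5.78% of all compared genes were called higher, and 2 of 33 lower (6.06%), where 3.57% were. No member differed 2-fold. The log2 change was above 0 for 24 of 33 members (72.7%) and for 54.1% of all compared genes. The median change of the members was 0.18, with the middle 50% between -0.06 and 0.34, and the median of all compared genes was 0.03. The ratio's counting interval lay above 1 for 19 members (57.6%; 32.7% of all compared genes) and below 1 for 5 (15.2%; 24.0% of all). Counting error alone is thus exceeded by many genes at this depth, and a member outside it is not set apart by that.

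Scaling moved these numbers. With both libraries set to equal total reads the median of all compared genes went from 0.03 to -0.05 and that of the members from 0.18 to 0.10. On that scale 4.43% of all genes were called higher and 4.88% lower, so that 47.6% of the calls were higher in place of 61.8%. BTG2 was no longer called, TNFRSF10B and PERP moved below 0, and 22 of 33 members (66.7%) stayed above 0 against 42.5% of all genes.

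**Figure D1:**
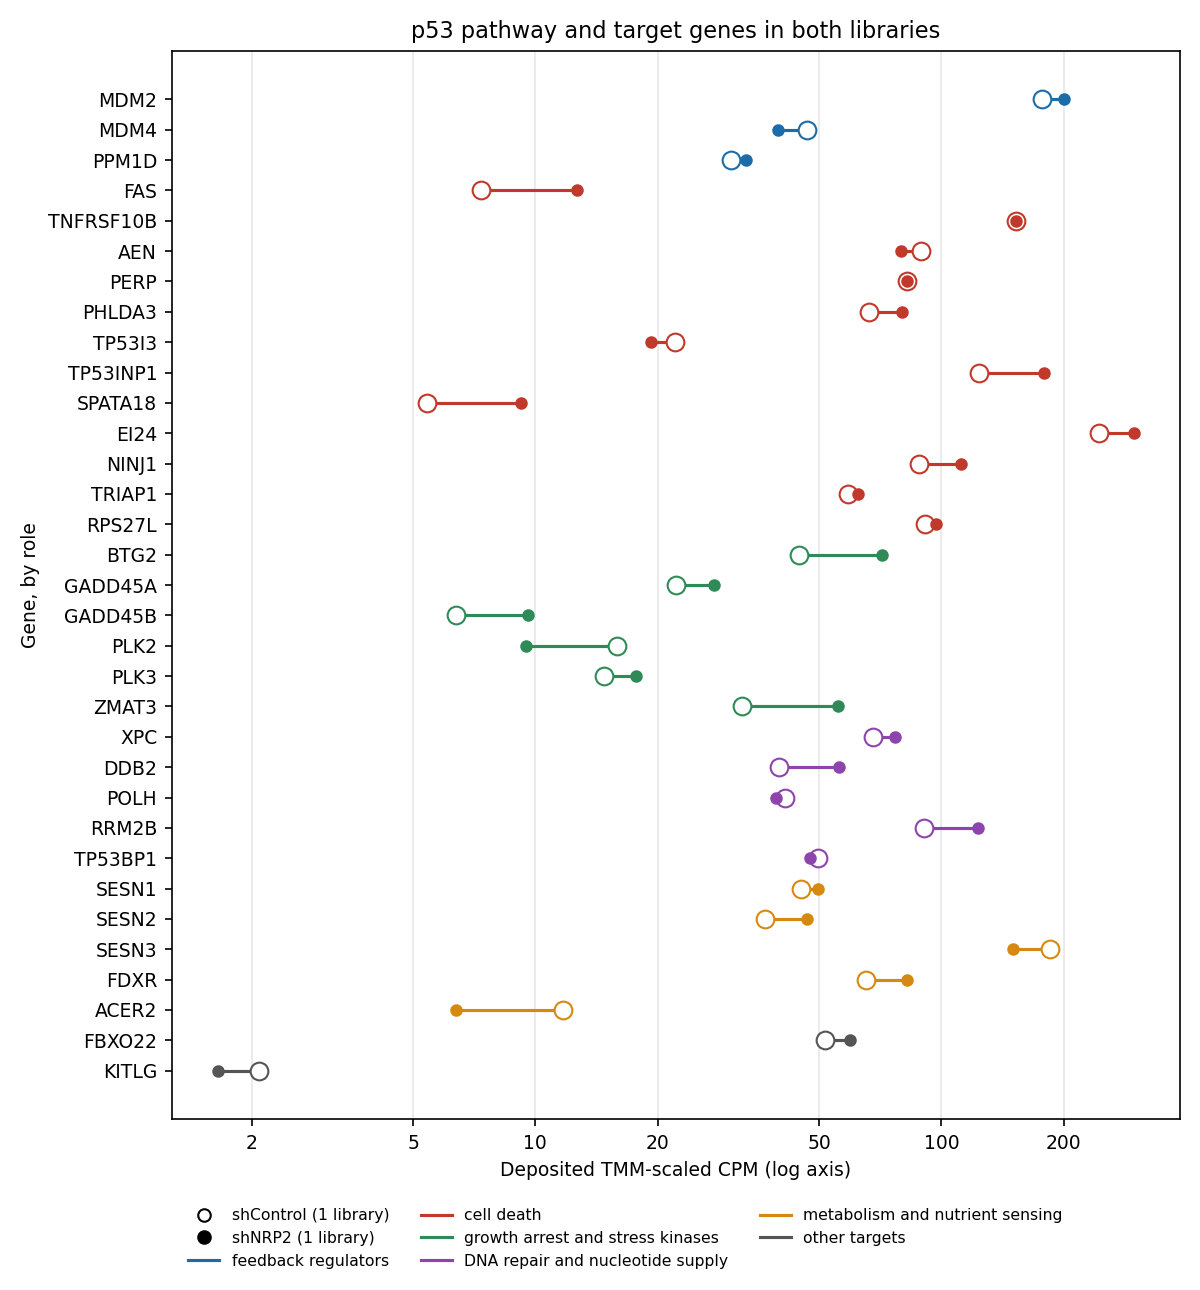
Level of each of the 33 genes in the 2 libraries, as deposited TMM-scaled CPM on a log axis, grouped by role; open circles are shControl, filled circles shNRP2, 1 library each. The longest shifts to the right are those of FAS, SPATA18 and ZMAT3, the longest to the left those of ACER2 and PLK2, and the circles of TNFRSF10B and PERP coincide.

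The feedback regulators of p53 differed little, and not in 1 direction. MDM2, the ubiquitin ligase that p53 itself induces, was at 177 CPM (3637 reads) in shControl and 200.3 CPM (4246 reads) in shNRP2, a ratio of 1.13 (1.08 to 1.18). Its partner MDM4 was at 46.6 and 39.6 CPM, 1.18-fold lower (1.07 to 1.29). PPM1D, the phosphatase WIP1 that removes damage-induced phosphates from p53 and its kinases, was at 30.3 and 33.1 CPM, with an interval of the ratio (0.980 to 1.22) that includes 1. MDM2 and MDM4 thus stood on opposite sides of 0, at log2 changes of 0.18 and -0.23, with counting intervals that do not overlap. None of these 3 genes was called, where 5.78% of all compared genes were called higher and 3.57% lower.

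Of the 12 genes of cell death 2 were called higher (16.7%, against 5.78% of all compared genes) and 0 lower (against 3.57%). FAS, a death receptor of the cell surface, was at 7.35 CPM (151 reads) in shControl and 12.7 CPM (269 reads) in shNRP2, a ratio of 1.73 (1.41 to 2.12). SPATA18, which encodes the mitochondrial quality control protein Mieap, was at 5.40 CPM (111 reads) and 9.24 CPM (196 reads), a ratio of 1.71 (1.35 to 2.18). TP53INP1, a nuclear and autophagy adaptor, came next with many more reads, 2545 and 3786, at 124 and 179 CPM. Its ratio was 1.44 (1.37 to 1.52), more tightly bounded than that of FAS or SPATA18 and under the threshold.

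The other death receptor of the list did not move with FAS. TNFRSF10B, the TRAIL receptor DR5, was at 153 CPM in both libraries, with a ratio of 1.01 (0.957 to 1.06). PERP, a tetraspan membrane protein of desmosomes, was also level, at 82.3 and 82.5 CPM. Between these and the called genes lay NINJ1, which mediates plasma membrane rupture in dying cells, at 88.1 and 112 CPM (ratio 1.27, 1.19 to 1.35). EI24, an endoplasmic reticulum protein of autophagy, was at 245 and 298 CPM (ratio 1.22, 1.18 to 1.27), and PHLDA3, which competes with AKT for membrane lipids, at 66.5 and 79.9 CPM (ratio 1.20, 1.12 to 1.29).

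TRIAP1, a small mitochondrial protein that restrains apoptosis, was at 58.9 and 62.4 CPM, and the ribosomal protein paralog RPS27L at 91.2 and 96.9 CPM, both with intervals that include 1. AEN, an apoptosis-enhancing nuclease, was 1.12-fold lower (1.05 to 1.20), at 89.1 and 79.5 CPM. TP53I3, the quinone oxidoreductase PIG3 and a classical pro-apoptotic target, was at 22.1 and 19.3 CPM, with an interval of the ratio from 0.764 to 1.00. In this group 10 of 12 genes lay above 0 (83.3%, against 54.1% of all compared genes), PERP and TNFRSF10B only barely. The median change was 0.17, against 0.03 for all compared genes.

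Genes of growth arrest and the stress kinases had the highest median of the role groups, 0.41. ZMAT3, a zinc finger protein that binds RNA and regulates splicing, was at 32.2 CPM (662 reads) in shControl and 55.6 CPM (1179 reads) in shNRP2. Its ratio of 1.73 (1.57 to 1.90) gave the largest log2 change of the 33 genes, 0.77. On the deposited scaling, its counting interval (0.63 to 0.90) alone lay wholly past the threshold. BTG2, an antiproliferative adaptor of mRNA deadenylation, was at 44.7 CPM (919 reads) and 71.3 CPM (1511 reads), a ratio of 1.59 (1.47 to 1.73). ZMAT3 and BTG2 stood at percentiles 96.9 and 95.6 of all compared genes.

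The GADD45 paralogs, stress proteins that act on kinases and the cell cycle, were both higher in shNRP2 without being called. GADD45A was at 22.2 and 27.5 CPM (ratio 1.24, 1.09 to 1.40). GADD45B was at 6.38 and 9.57 CPM, and its plain ratio of 1.5 (1.20 to 1.88) became a log2 change of 0.52 on the log2(CPM + 1) scale.

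The polo-like kinases of the list stood on opposite sides of 0. PLK2 was at 15.9 CPM (327 reads) in shControl and 9.48 CPM (201 reads) in shNRP2, 1.68-fold lower (1.40 to 2.01), at percentile 2.14 of all compared genes. PLK3 was at 14.8 CPM (303 reads) and 17.7 CPM (375 reads), a ratio of 1.20 (1.03 to 1.40). The control levels of both rest on about as many reads, and their intervals do not overlap.

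**Figure D2:**
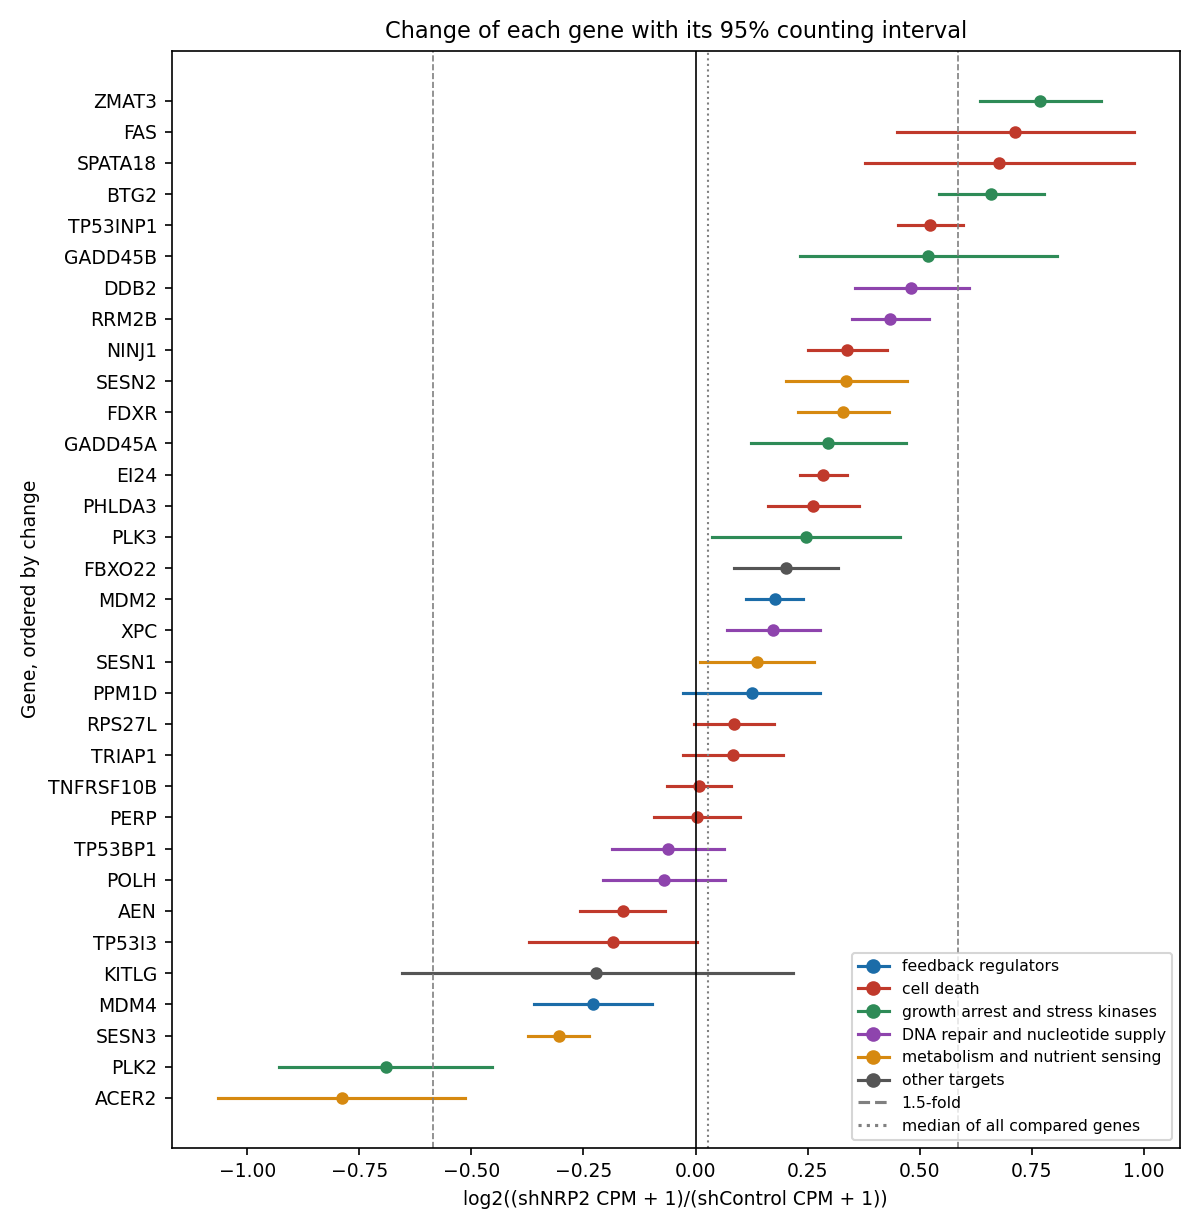
Log2 change of each gene from shControl to shNRP2, ordered, with the 95% counting interval as a horizontal line; dashed lines mark 1.5-fold, the dotted line the median of all compared genes (0.03), and colours the roles. Points of ZMAT3, FAS, SPATA18 and BTG2 lie right of the upper dashed line, those of PLK2 and ACER2 left of the lower one.

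Of the 5 genes of DNA repair and nucleotide supply, 3 had intervals above 1 (60.0%, against 32.7% of all compared genes) and 2 had intervals that include 1. Among these 5 genes 0 were called, where 5.78% of all compared genes were called higher and 3.57% lower. DDB2, which recognises ultraviolet damage and holds the decamer pair without mismatch shown above, was at 39.8 CPM (817 reads) and 55.9 CPM (1186 reads), a ratio of 1.41 (1.29 to 1.54). RRM2B, the p53-inducible small subunit of ribonucleotide reductase, which supplies deoxynucleotides for repair, was at 90.7 and 123 CPM (ratio 1.36, 1.28 to 1.44). XPC, the damage sensor of global nucleotide excision repair, was at 67.9 and 76.7 CPM (ratio 1.13, 1.05 to 1.21). The translesion polymerase POLH was at 41.2 and 39.2 CPM and the double-strand break reader TP53BP1 at 49.7 and 47.6 CPM. The intervals of POLH and TP53BP1 include 1. TP53BP1 acts with p53 and is not a typical transcriptional target.

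Metabolic and nutrient-sensing targets included the lowest member of the list. ACER2, a Golgi ceramidase that leads to sphingosine, was at 11.7 CPM (241 reads) in shControl and 6.37 CPM (135 reads) in shNRP2, 1.84-fold lower (1.49 to 2.29), at percentile 1.33 of all compared genes. FDXR, the mitochondrial ferredoxin reductase, was at 65.1 and 82.1 CPM (ratio 1.26, 1.17 to 1.35).

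The 3 sestrins, which restrain the growth kinase complex mTORC1, did not move together. SESN2, a leucine sensor that is also induced by other stress pathways, was at 36.8 and 46.7 CPM (ratio 1.27, 1.15 to 1.40), and SESN1, a direct p53 target, at 45.0 and 49.6 CPM (ratio 1.10, 1.01 to 1.20). SESN3, which is mainly known as a FOXO target, was at 185 and 149.9 CPM, 1.24-fold lower (1.18 to 1.30). The intervals of SESN1 and SESN2 overlap, and that of SESN3 overlaps neither.

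Neither of the 2 genes outside these roles was called, where 5.78% of all compared genes were called higher and 3.57% lower. FBXO22, a substrate receptor of a ubiquitin ligase, was at 51.8 and 59.7 CPM (ratio 1.15, 1.06 to 1.25). KITLG, stem cell factor, had the fewest reads of the list, 43 and 35, and its interval of the ratio ran from 0.490 to 1.26, which includes 1 and also the ratios of the members called lower.

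Among the 6 called genes, the distance from the threshold was within counting error for all but ZMAT3 on the deposited scaling. With equal total reads the log2 change of ZMAT3 was 0.69 in place of 0.77, and intervals were not computed on that scale. Log2 intervals ran from 0.45 to 0.98 for FAS, 0.38 to 0.98 for SPATA18, 0.54 to 0.78 for BTG2, -0.93 to -0.45 for PLK2 and -1.07 to -0.51 for ACER2. GADD45B (0.23 to 0.81), DDB2 (0.35 to 0.61) and TP53INP1 (0.45 to 0.60) reached past the threshold from below.

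Some members share sequence with another listed gene, and whether counting used the strand was not stated. In GENCODE release 29, FAS, FBXO22, MDM2, PLK3, POLH, TNFRSF10B, TP53BP1, TP53I3 and XPC overlap exons of a gene on the opposite strand, and their values are uncertain to that extent. The overlap was longest for TP53BP1 and TUBGCP4, with 3732 bases. For FAS the partner ACTA2 was at 1.56 and 2.03 CPM. Transcripts of MDM2, FBXO22 and ZMAT3 share stretches of 252 to 310 bases, at 95% identity or more, with transcripts of other genes. For ZMAT3 these were MFN1 at 143 and 161 CPM, FOXK1 at 127 and 98.0 CPM and ZNF426 at 13.4 and 6.93 CPM, so MFN1 and FOXK1 were above ZMAT3 itself in both libraries. For MDM2 they were MFN1, NECAP1 at 103 and 123 CPM, and FBXO22, which is also on the list. The part of shared reads in these values was not tested. The 23 members with no exon overlap and no match of at least 200 bases at 95% identity had a median change of 0.26. Shorter or more diverged matches were not counted.

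Other genes of the pathway were taken from 2 further lists. Both lists, like the 33 genes, were chosen with earlier results of these data known. They were read in the same 2 libraries, so they are no independent check on the 33. The first held 51 p53 targets outside the 33, of which 45 were compared. Their median change was 0.19, close to that of the 33, with 33 of 45 above 0 (73.3%, against 54.1% of all compared genes), 4 called higher (8.89%, against 5.78%) and 3 called lower (6.67%, against 3.57%). The most cited targets differed little: CDKN1A, the cell cycle inhibitor p21, was at 186 and 208 CPM (ratio 1.12, 1.07 to 1.17), and BAX, a pore-forming death effector, at 64.2 and 69.4 CPM (ratio 1.08, 1.00 to 1.17).

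BH3-only genes of p53-dependent death stood on opposite sides of 0. BBC3, which encodes PUMA, was at 4.92 CPM (101 reads) and 7.12 CPM (151 reads), a ratio of 1.45 (1.12 to 1.88). PMAIP1, which encodes NOXA, was at 12.3 CPM (252 reads) and 6.65 CPM (141 reads), 1.84-fold lower (1.5 to 2.28). PMAIP1 was the lowest of the 45 targets, and the other genes called lower were REV3L, the catalytic subunit of translesion polymerase zeta, at 48.6 and 29.4 CPM, and the coenzyme A synthesis kinase PANK1, at 22.9 and 14.6 CPM.

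The genes called higher on this list were GDF15, TNFAIP8, SFN and TGFA. GDF15, a secreted stress cytokine, was at 69.8 CPM (1433 reads) and 140.5 CPM (2978 reads), a ratio of 2.01 (1.89 to 2.15) and larger than that of any of the 33. TNFAIP8, a regulator of cell death and lipid signalling, was at 3.99 and 9.76 CPM (ratio 2.45, 1.88 to 3.20). SFN, the 14-3-3 sigma protein of the G2 checkpoint, had 21 and 62 reads (ratio 2.86, 1.72 to 4.94), and the EGFR ligand TGFA was at 10.9 and 17.9 CPM.

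The second list held 27 upstream genes, of which 26 were compared: kinases, ligases, cofactors and relatives of p53. Their median change was -0.02, with 11 of 26 above 0 (42.3%, against 54.1% of all compared genes), 2 called higher (7.69%, against 5.78%) and 0 called lower (against 3.57%). The called genes were CDKN2A, whose transcripts encode p16 and the MDM2 inhibitor ARF, at 29.5 and 56.4 CPM (ratio 1.91, 1.73 to 2.11), and the p53 relative TP73, at 4.67 and 10.1 CPM (ratio 2.16, 1.69 to 2.78).

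Damage kinases upstream of p53 went both ways without being called. ATM was at 31.4 and 24.0 CPM, 1.31-fold lower (1.16 to 1.47), and CHEK2 at 47.8 and 58.1 CPM (ratio 1.22, 1.12 to 1.32). USP7, which removes ubiquitin from p53 and MDM2, was at 209.7 and 228 CPM, and the acetyltransferase EP300, a p53 coactivator, at 149 and 123 CPM. Neither p53 protein nor its DNA binding was measured.

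**Figure D3:**
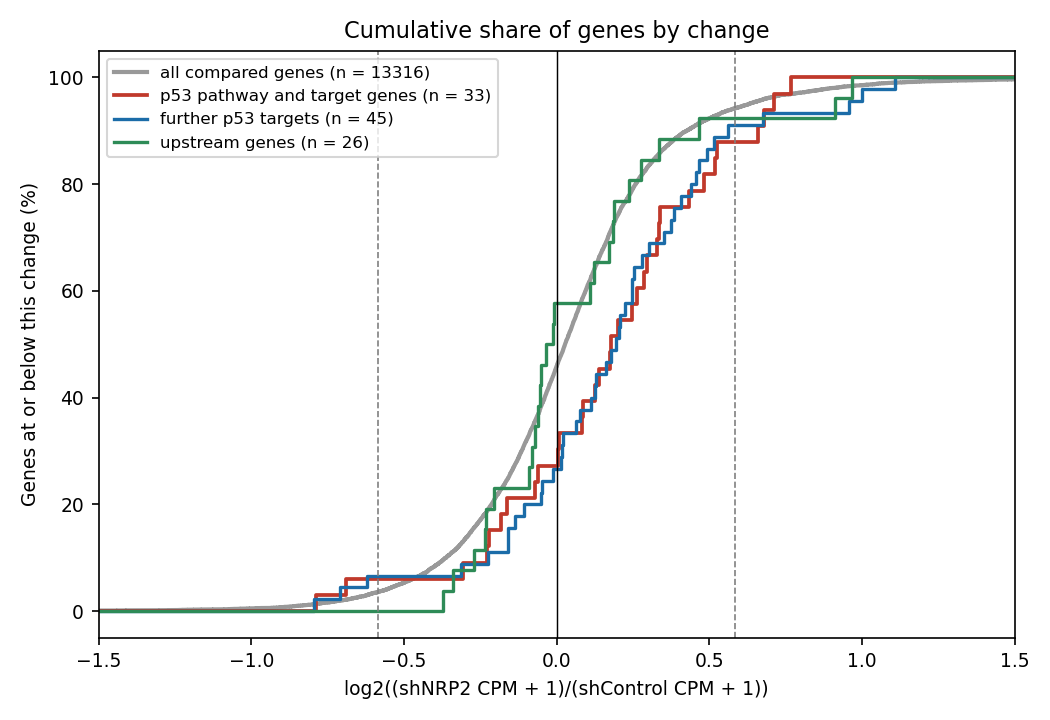
Cumulative share of genes against log2 change for all 13316 compared genes, the 33 p53 pathway and target genes, the 45 further targets and the 26 upstream genes; dashed lines mark 1.5-fold, and the axis leaves out genes beyond 1.5 on either side. The curves of the 33 genes and of the further targets lie to the right of the grey curve over most of the range (medians 0.18 and 0.19 against 0.03), and the curve of the upstream genes runs closer to the grey one (median -0.02).

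**Figure D4:**
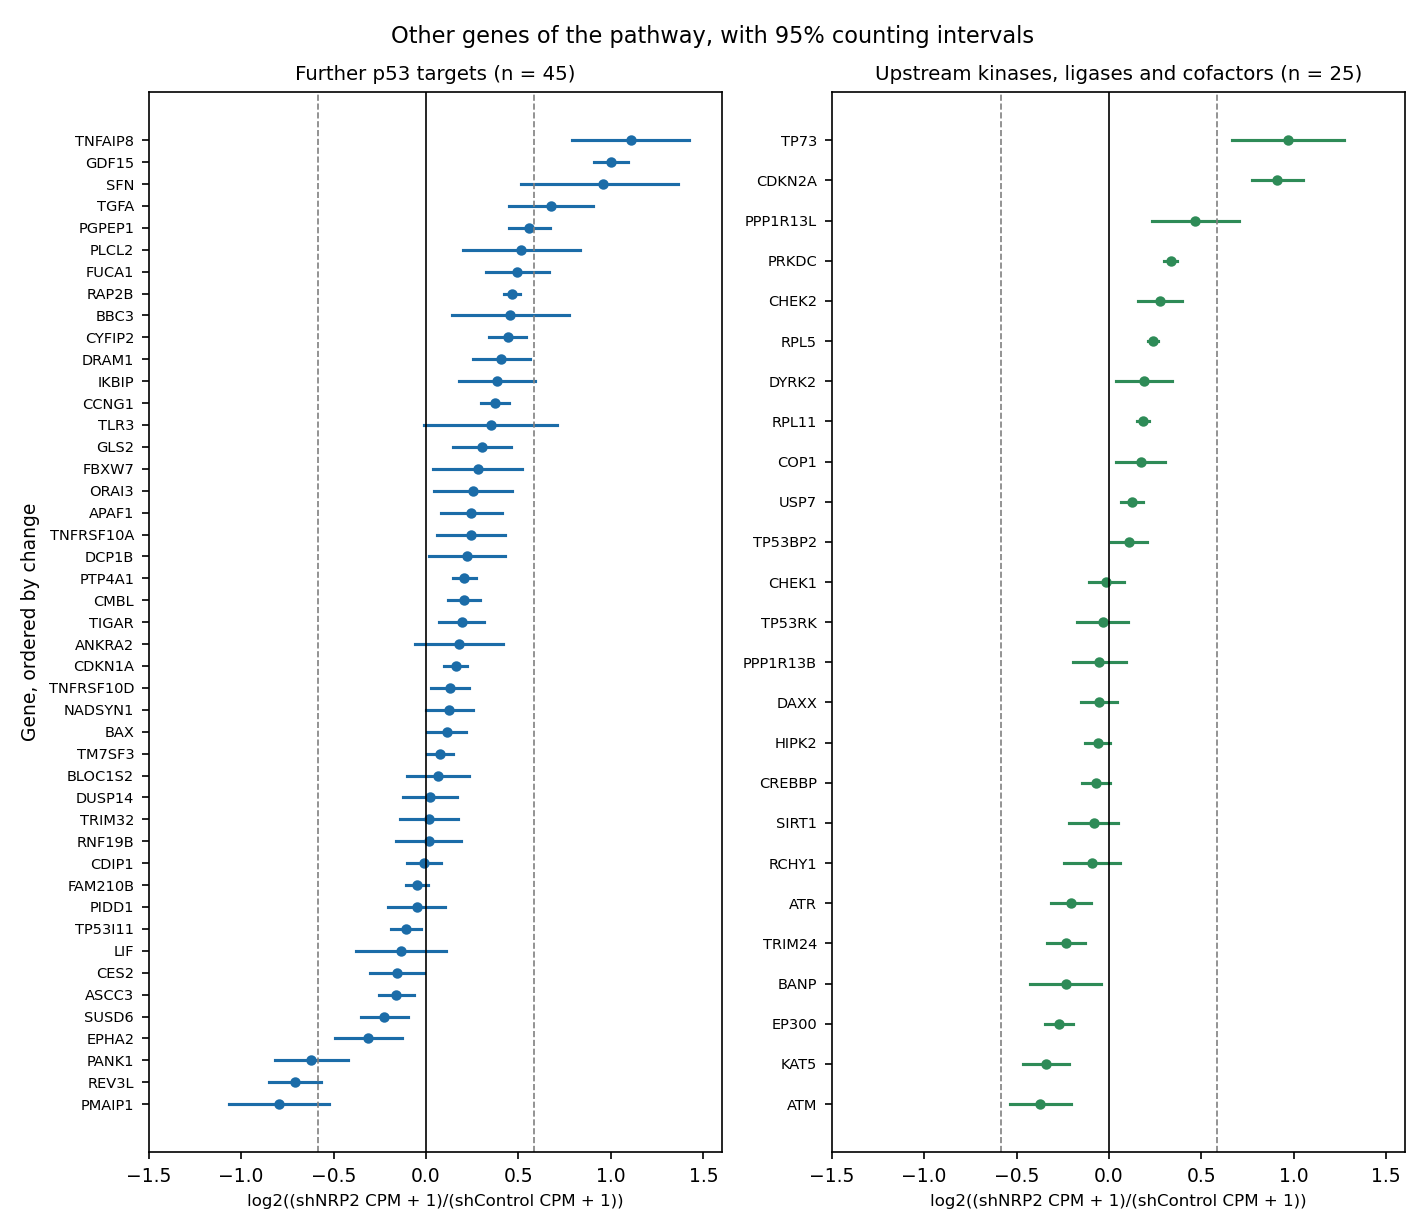
Log2 change of compared genes of both further lists (45 targets and 25 of the 26 upstream genes), ordered, with 95% counting intervals; dashed lines mark 1.5-fold. TNFAIP8, GDF15, SFN and TGFA lie past the upper line and PMAIP1, REV3L and PANK1 past the lower one in the left panel, TP73 and CDKN2A past the upper line in the right panel.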

How the data were processed

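Each of the authors' deposited tables gives 1 signal value for every gene symbol, a TMM-scaled CPM by the table's name. RSEM 1.2.15, edgeR, Bowtie2 2.1.0, bcl2fastq 2.17 and the build hg19 are named per the submitters' processing notes, without roles; annotation and strand setting were not stated. Of the values, 100.0% are whole multiples, within 0.01 read, of the value of 1 read (0.0487 in shControl, 0.0472 in shNRP2). Whole read numbers were recovered from them. Whether these had been rounded from estimates was not stated, and the intervals do not cover errors in assigning reads to genes. The columns sum to 1024943 and 1084413, more than plain CPM would; the design had assumed CPM, and the values were used as deposited. Of 26475 symbols, 28 that had become calendar dates (0.181% and 0.184% of reads) were left out.

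Ratios, exact binomial intervals and an exact binomial test on reads with Benjamini-Hochberg adjustment, which compares libraries and not conditions, were computed with Python 3.11.15, numpy 2.4.6, pandas 2.3.3 and scipy 1.17.1. The intervals and the test were also tried on simulated counts. Those counts held counting error alone, with no spread between cultures, so the trial checks only the computation. Figures used matplotlib 3.10.9. The members, the gene lists and the thresholds were chosen with earlier results of these data known. Named are all members, the genes of the 2 further lists called at 1.5-fold on the log2(CPM + 1) scale with a mean of at least 1 CPM, and CDKN1A, BAX, BBC3, PMAIP1, GDF15, ATM, CHEK2, USP7 and EP300. COP1 was matched as RFWD2. Alternatives were other pseudocounts, filters, scalings and call rules. A planned comparison of member paralog proteins was not run. Some genes of the further lists are counted in their totals but not reported here by name.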

Additional observations from a re-analysis of the deposited data

How the results depend on the processing

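The direction of all 6 called members held under every pseudocount, filter and scaling tried; only the calls changed. With a pseudocount of 5 CPM, 2 members were called higher (BTG2 and ZMAT3; 2.47% of all compared genes) and 0 lower (1.19% of all). At 2-fold, 0 were called higher and 0 lower, where 1.46% and 0.526% of all compared genes were. By counting intervals that exclude 1, 19 were higher (32.7% of all compared genes) and 5 lower (24.0%), and by an adjusted p under 0.05 of the binomial test on reads, which compares the libraries, 18 (30.2%) and 5 (22.0%). The median change of the members was 0.19 with a filter at a mean of 5 CPM, which dropped KITLG, 0.10 with equal total reads, 0.15 with the median of all genes set to 0, 0.16 with quantile normalization and 0.26 without the 10 members that share sequence with another gene, an alternative chosen after seeing the data. Equal totals, median centring and quantile normalization each put TNFRSF10B and PERP below 0. With these scalings, in that order, the median of all compared genes was -0.05, 0.00 and -0.01, against 0.03 as deposited. The median of the further targets lay between 0.11 and 0.20 over all pseudocounts, filters and scalings tried. That of the upstream genes lay between -0.10 and -0.02. No paired analysis was possible because each group holds 1 library; for the same reason no replicate could be left out. Depth limits KITLG most, with 43 and 35 reads.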

Other observations

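Pathway genes under a mean of 1 CPM were outside the comparison and outside the rule for naming genes, and those given here were chosen after their values were seen. On the list of further targets they included EDA2R, TNFRSF10C, PRDM1, SLC12A4 and TRIM22, and on the upstream list TP63. EDA2R, a receptor of the TNF family, had 0 reads in both libraries, which allows up to 0.146 CPM in shControl and 0.141 CPM in shNRP2. TP63, the p53 relative of basal epithelium, had 4 and 0 reads.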
